A study of Canis lupus familiaris with 21 samples.

Results

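Interferon-stimulated genes are the genes that cells switch on in answer to interferons, and many of their products act against viruses. A list of 40 of them was followed through tissue of canine cutaneous histiocytoma (CCH), a benign skin tumor of dogs that derives from Langerhans cells. Members were found in the tables by gene symbol. Of the 40 listed genes, 38 were found, each in 1 row, among 21399 genes measured, while IFIT1 and SAMD9 were not analysed here.

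As background, type I interferons bind a receptor made of IFNAR1 and IFNAR2. The kinases JAK1 and TYK2 then become active, and a complex that holds STAT2 and IRF9 starts transcription of the genes on the list. Interferon-γ, a product mainly of T cells and natural killer cells, binds IFNGR1 and IFNGR2, with IRF1, CIITA and IDO1 among its typical targets. Most CCH regress without treatment while lymphocytes enter the tumor.

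The 21 samples came from archived, formalin-fixed and paraffin-embedded tumors of privately owned dogs, all of them spontaneous, and the stages followed the spread of lymphocytes in the tumor. Group 1 held 5 samples of tumor cell-rich tissue from the first stage, where lymphocytes are missing by histology, from dogs of 0.5 to 5 years with 1 age unknown. Group 2a held 5 samples of tumor cell-enriched areas of the second stage, from dogs of 0.6 to 3 years. Group 2b held 6 samples of lymphocyte-enriched areas of the second stage, from dogs of 0.3 to 6 years, and 4 of these samples combined tissue of 3 to 4 tumors while 2 came from a single dog. Group 3 held 5 samples of lymphocyte-enriched tissue of the third stage, from dogs of 1.5 to 9 years. The areas of the second stage were chosen under the microscope and removed with biopsy punches, and each sample is a mixture of cells in which tumor cells or lymphocytes prevail. A replicate number shared by samples of different groups marks no shared dog.

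Sequencing read the 3′ ends of transcripts, and the total of assigned reads lay between 2113393 and 3559404 a sample. Levels below are normalized counts, which are raw counts divided by a size factor of 0.855 to 1.27 for each sample. DV200, the percentage of RNA fragments longer than a set length and a measure of RNA quality, was 68.5 ± 2.46 (SD, n = 5) in group 1 and 73.7 ± 2.69 (n = 5) in group 2a (2-sided exact permutation p = 0.0159, adjusted p = 0.0476 over 4 comparisons). It was 73.2 ± 2.09 (n = 5) in group 3, again above group 1 (exact permutation p = 0.0238, adjusted p = 0.0476). These DV200 values are those of the labels, a supplement of the study gives another value for 1 sample of group 3, and RQN, a further RNA quality score of the study, was not used here. The summed level of 10 T cell markers was 50.1 to 1874 in group 1, 463 to 1513 in group 2a, 2632 to 4001 in group 2b and 2982 to 4552 in group 3, with CD4 at 0 in every sample of groups 1 and 2a. The 10 histiocytoma markers summed to 4764 to 8051 over all samples, and CD1A6 among them was at 0 in groups 1 and 3. In such bulk samples, fewer cells of a type and less RNA per cell cannot be told apart.

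Most of the list was detected in every sample. Of the 38 members, 29 had more than 3 counts in all 21 samples, and 35 reached a count of 10 in at least 5 samples. Median levels ranged from 0 for OASL to 936 normalized counts for ADAR, and 7 members had a median under 10. Levels describe each gene across samples and are not set against those of other genes. The members OASL, BST2, EIF2AK2 and IFI6 were too low for a test in any comparison. OASL exceeded 3 counts in 1 sample, BST2 in 6, EIF2AK2 in 9 and IFI6 in 14, and a change in them was not detectable at this depth.

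**Figure D1:**
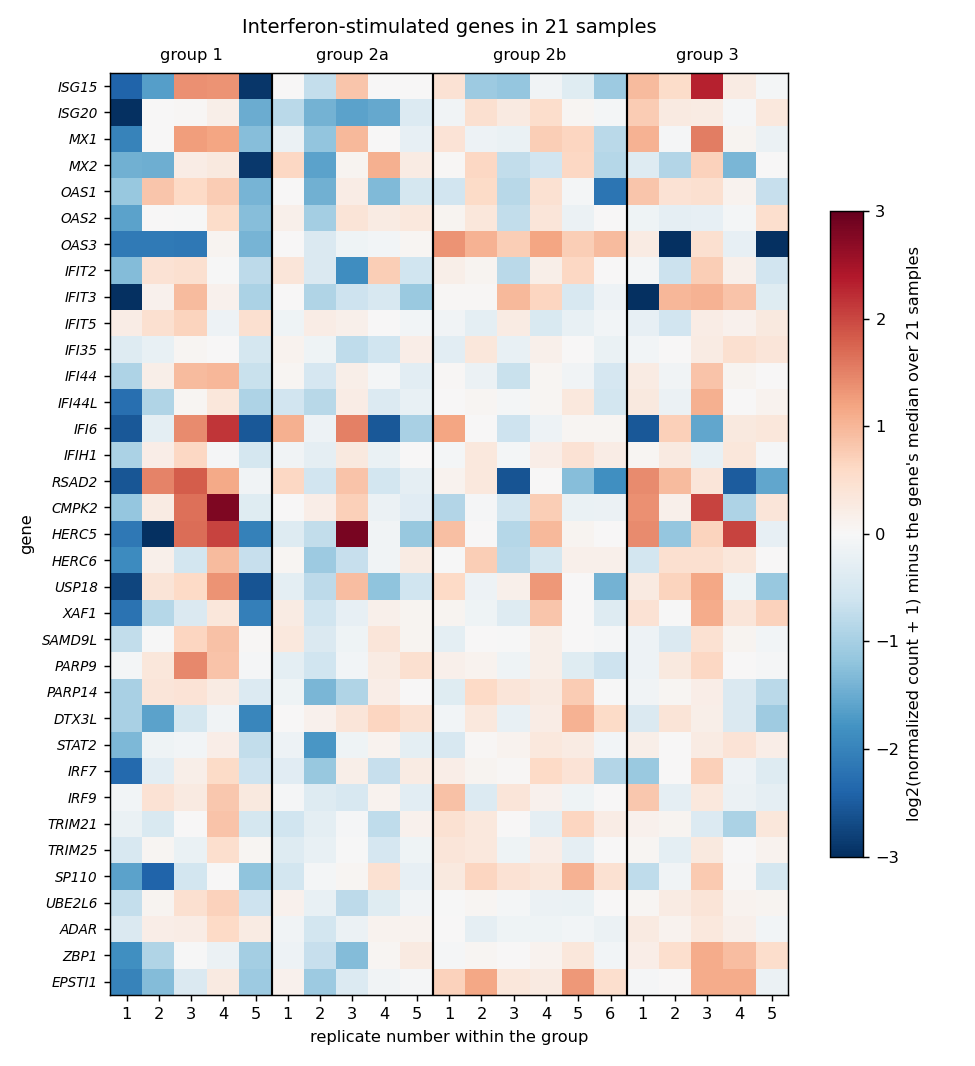
Normalized counts of the 35 members with a count of 10 or more in at least 5 samples, one row per gene and one column per sample, as log2(normalized count + 1) minus the median of the gene over all 21 samples, with the colour scale ending at 3 log2 units on either side. Within group 1 the column of replicate 1 is mostly below and that of replicate 4 mostly above the gene medians, while the columns of groups 2a and 2b look more alike.

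The clearest feature of the list was its spread among the tumors of the first stage. The mean of log2(normalized count + 1) over the 38 members was 4.55, 5.58, 6.34, 6.67 and 4.96 in replicates 1 to 5 of group 1 (mean 5.62, SD 0.897). It lay between 5.33 and 6.00 in group 2a (SD 0.268), between 5.75 and 6.24 in group 2b (SD 0.216) and between 5.78 and 6.55 in group 3 (SD 0.303). Replicates 1 and 5 of group 1 thus fell below all samples of the other groups, and replicate 4 of group 1 stood above all of them. Gene by gene, the SD of log2(normalized count + 1) in group 1 had a median of 0.926 over the 35 members that passed the count minimum, against 0.474 over all 12505 genes that passed. In the other groups members and all genes were closer, with 0.428 against 0.444 in group 2a, 0.406 against 0.361 in group 2b and 0.483 against 0.465 in group 3. Group 1 had the largest SD of the 4 groups for 27 of the 35 members and for 32.3% of all genes, and the count of members was 23 to 27 when any 1 sample of group 1 was left out. In group 2b, 4 of the 6 samples combined tissue of 3 to 4 tumors, so its SD is not one between single tumors. Group 2b had the largest SD for 9.98% of all genes. These values are a description, and a difference in spread between groups was not tested.

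The same samples carried the low and the high values for most members. Replicate 1 was the lowest of group 1 for 25 of the 35 members (18.7% of all genes) and the lowest of all 21 samples for 15. Replicate 4 was the highest of group 1 for 23 members (26.5% of all genes) and the highest of all 21 for 11, and replicate 3 was the highest of the group for 11. ISG15 differed 21.9-fold between the lowest and the highest sample of group 1, RSAD2 25.1-fold, USP18 21.5-fold, ISG20 20.2-fold and IFIT3 35.2-fold. IFI35 differed only 1.50-fold, IFIT5 1.76-fold and IRF9 1.85-fold, so the width of the range was not common to the whole list. In group 3, replicate 3 was the highest for 21 of the 35 members (22.5% of all genes), and in group 2a replicate 2 was the lowest for 19 (20.5%).

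Other measures differed among the group 1 samples too. In replicates 1 to 5, the 10 T cell markers summed to 50.1, 538, 1874, 1249 and 191 normalized counts, so replicates 1 and 5 were lowest and replicates 3 and 4 highest in both measures, with replicates 3 and 4 in opposite order. The 10 histiocytoma markers summed to 5805, 5922, 6692, 6402 and 5732, with replicates 3 and 4 again highest, and DV200 was 68.9, 68.3, 71.2, 69.4 and 64.5. Fibroblast markers (4 of 4 found) summed to 17861, 49195, 5763, 10019 and 38000, with replicates 3 and 4 lowest. Keratinocyte markers (8 of 8) summed to 762 to 12223 and neutrophil markers (3 of 4) to 209 to 9232, neither in the order of the member levels. The part of these measures in the spread was not tested.

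**Figure D2:**
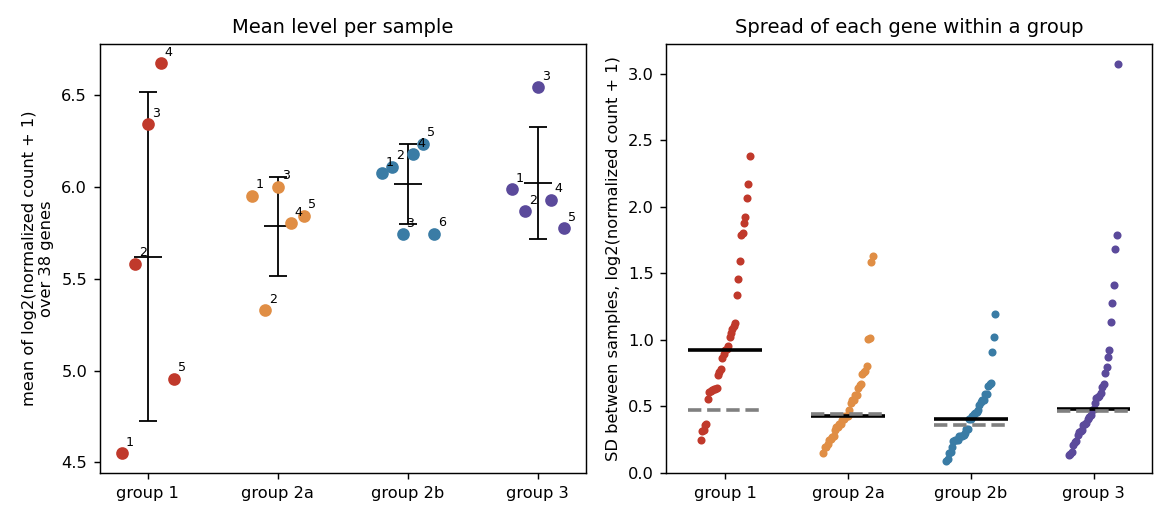
Left, the mean of log2(normalized count + 1) over the 38 members in each sample (points) with the mean and SD of each group. Right, the SD of log2(normalized count + 1) within each group for each of 35 members (points), with the median of the members (solid line) and of all 12505 genes (dashed line). The 5 samples of group 1 run from 4.55 to 6.67, and the members' median SD of 0.926 in group 1 is above the all-gene value of 0.474.

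The study compared stages within the same kind of area, and the first of these comparisons, group 2a against group 1, asked what differs between tumor cells of the second and of the first stage. No member was called, where a call needed both an adjusted p of at most 0.05 in edgeR's quasi-likelihood test and a log2 fold change of 1 or more in either direction, and 0.393% of all 11200 genes tested were called. Of 31 members tested, 0 had an adjusted p of at most 0.05 (0.527% of all genes) and 3 had an unadjusted p under 0.05 (17.9% of all genes). The samples of both groups were apart for 1 member, DTX3L (5.65% of all genes). The median log2 fold change was −0.19 over members and −0.02 over all genes, with 10 members above and 21 below 0. That median turned to 0.02 when group 1 replicate 4 was left out and was −0.54 with DV200 in the model.

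The lymphocyte-rich areas of the third and the second stage, group 3 against group 2b, also gave 0 calls among 34 members tested, beside 0.0428% of 11685 genes. An adjusted p of at most 0.05 was reached by 0 members and 0.111% of all genes, and an unadjusted p under 0.05 by 9 members and 13.1% of all genes. The groups were apart for OAS3 and UBE2L6 (2.11% of all genes). OAS3, at raw counts of 0 to 11 in group 3, reached the count minimum only with group 2b, where it was high, so its separation is a description. The median log2 fold change was 0.14 over members and 0.01 over all genes, with 21 members above and 13 below 0.

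Areas that differ in kind were compared as well, first within the second stage and then between the third and the first stage. In group 2b against group 2a, 3 of 32 members tested were called, ISG20, EPSTI1 and OAS3, and each was higher in group 2b. This is 9.38% of the members, against 9.55% of all 11545 genes called in either direction and 5.98% called higher. OAS3 reached the count minimum through group 2b alone, so it could enter the test only as a gene that is higher there, and the count without it was 2 of 31. SP110 brought the number with an adjusted p of at most 0.05 to 4, all of them higher, which is 12.5% against 16.5% of all genes in either direction and 8.9% higher. The groups were apart for 3 members, each higher (9.38%, against 10.5% of all genes in either direction and 6.07% higher). Counted in either direction the shares of members were near or under those of all genes. For higher values alone they were above, but each of these counts includes OAS3, so no excess of higher members is read from them. The 10 T cell markers summed to 463 to 1513 in group 2a and to 2632 to 4001 in group 2b, the 6 B cell markers to 339 to 868 and to 1029 to 1745. The 3 neutrophil markers had a median log2 fold change of −2.20 with 1 called lower. The part of these cell types in the member differences was not tested. The median log2 fold change was 0.22 over members and −0.01 over all genes, with 22 members above and 10 below 0.

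Groups 3 and 1 differ in stage as well as in kind of area, and these cannot be told apart in their comparison. Between groups 3 and 1, ZBP1 was the only one of 33 members called, which is 3.03% against 8.33% of all 11470 genes called in either direction and 4.92% called higher. It was likewise the only member with an adjusted p of at most 0.05 (13.9% of all genes) and the only one whose groups were apart (11.9% of all genes). The median log2 fold change was 0.17 over members and −0.00 over all genes, with 23 members above and 10 below 0. It was −0.45 with DV200 in the model and −0.03 without group 1 replicate 1. The 2 comparisons of areas share no sample, and of 31 members tested in both, 18 were higher in the lymphocyte-rich area in both, 7 lower in both and 6 went opposite ways. This is the same sign for 80.6% of members, against 70% of 11072 genes.

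**Figure D3:**
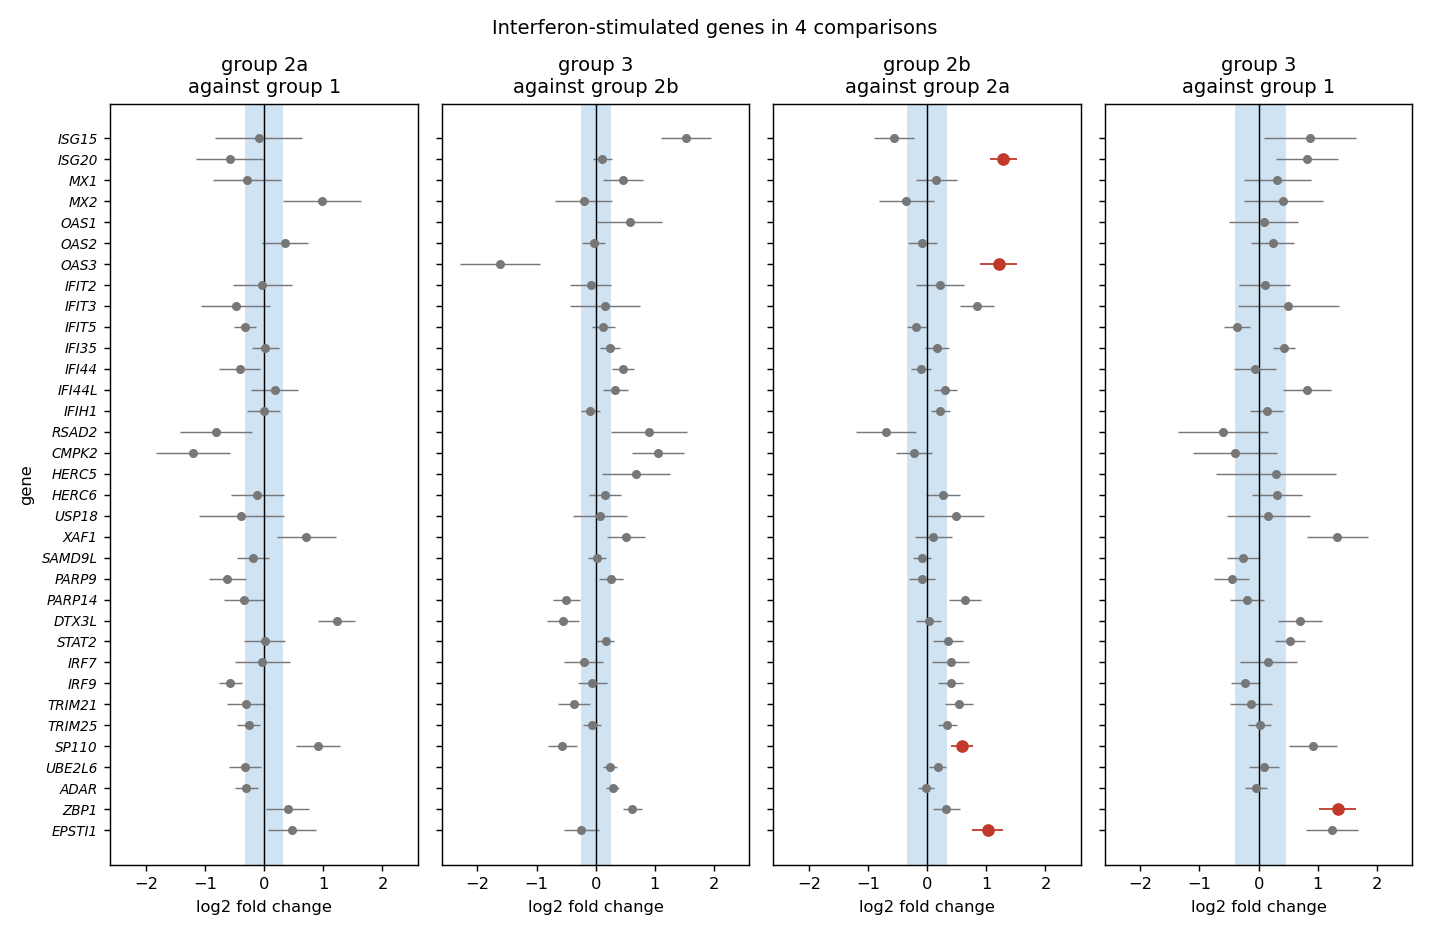
The log2 fold change with its SE for each tested member in the 4 comparisons, with red points for an adjusted p of at most 0.05 (edgeR's quasi-likelihood test over all genes) and a blue band for the middle 50% of all genes tested. Red points are ISG20, EPSTI1, OAS3 and SP110 in group 2b against group 2a and ZBP1 in group 3 against group 1, and none appears in the stage comparisons.

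Among the transcription factors of the pathway, IRF9, the DNA-binding partner of STAT2, had the second smallest p in group 2a against group 1. IRF9 (chromosome 8, 4277257 to 4282303 of UU_Cfam_GSD_1.0) had 197, 279, 251, 364 and 253 in group 1, 203, 158, 149, 223 and 168 in group 2a, 156 to 383 with a median of 217 in group 2b, and 363, 171, 259.9, 183 and 173 in group 3 (normalized counts). Group 2a lay at the lower end of group 1, with a single sample of group 1 below its highest. The difference did not pass the test (log2 fold change −0.57, SE 0.19, adjusted p = 0.142, edgeR's quasi-likelihood test). STAT2, the other member of that complex on the list, ranged from 84.4 to 377 over the 21 samples and IRF7, which drives interferon-α genes, from 7.56 to 70.8. Their log2 fold changes over the 4 comparisons ran from −0.20 to 0.53, with adjusted p of 0.174 or more.

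ZBP1, a sensor of left-handed nucleic acids that can start cell death, was the only member called in group 3 against group 1. ZBP1 (chromosome 24, 43325535 to 43337462) had 50.1, 95.5, 179, 161 and 88.5 in group 1, 161, 111, 72.2, 189 and 217 in group 2a, 170.3 to 228 with a median of 184 in group 2b, and 207, 255, 389, 345 and 261 in group 3. The 5 samples of group 3 all lay above the 5 of group 1, and their mean was 291 ± 73.8 (SD, n = 5) against 115 ± 53.7 (n = 5). The difference passed the test (log2 fold change 1.34, SE 0.31, adjusted p = 0.0173, edgeR's quasi-likelihood test; exact permutation p = 0.00794, the smallest that 5 against 5 samples allow). ZBP1 was called whichever sample was left out, with adjusted p of 0.0114 to 0.0446, but its log2 fold change was 0.88 with an adjusted p of 0.330 when DV200 was in the model. It also had the smallest p of all members in group 3 against group 2b, where the groups overlapped and the test was not passed (log2 fold change 0.62, adjusted p = 0.157). In group 2b against group 2a, which are of the same stage, ZBP1 did not pass edgeR's quasi-likelihood test either (log2 fold change 0.32, adjusted p = 0.372). The 10 T cell markers summed to 2982 to 4552 in group 3 and to 50.1 to 1874 in group 1, and their part in the difference was not tested.

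The remaining sensors and regulators did not pass the test in any comparison. IFIH1, a sensor of long double-stranded RNA, ranged from 43.5 to 132 normalized counts, TRIM21, a cytosolic receptor for antibodies, from 20.1 to 73.2, and TRIM25, a ubiquitin ligase that works with RIG-I, from 109.9 to 222. Their log2 fold changes ran from −0.36 to 0.54, and the smallest adjusted p was 0.148.

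ISG15, a ubiquitin-like protein that is attached to other proteins, varied widely among the samples of group 1. ISG15 (chromosome 5, 56712681 to 56713834) had 11.3, 19.7, 168, 164 and 7.65 in group 1, 64.0, 38.6, 114, 64.3 and 63.9 in group 2a, 27.9 to 86.8 with a median of 39.5 in group 2b, and 124, 93.4, 323, 75.6 and 61.8 in group 3. Group 1 split into low replicates 1, 2 and 5 and high replicates 3 and 4, and the highest of all values was that of group 3 replicate 3. For group 3 and group 2b the means were 136 ± 107 and 47.1 ± 23.3 (n = 5 and 6), and the ranges overlapped (log2 fold change 1.53, SE 0.42, adjusted p = 0.168, edgeR's quasi-likelihood test). With DESeq2 ISG15 was called (log2 fold change 1.53, adjusted p = 0.0231), in a range of adjusted p from 0.0231 to 0.998 over all fits run, and without group 3 replicate 3 the log2 fold change was 0.91. UBE2L6, the enzyme that hands ISG15 on to its targets (chromosome 18, 39072768 to 39087759), had 335, 584, 766, 888 and 357 in group 1, 606, 469, 319, 427 and 508 in group 2a, 481 to 572 with a median of 539 in group 2b, and 575, 657, 716, 591 and 586 in group 3. The 5 samples of group 3 all lay above the 6 of group 2b, but by a small step (log2 fold change 0.24, SE 0.11, adjusted p = 0.381; exact permutation p = 0.00433). HERC5, the main ligase for ISG15 in humans, ranged from 0 to 61.1, the related HERC6 from 22.7 to 168, and USP18, which removes ISG15 and dampens receptor signalling, from 3.78 to 81.1. None of the 3 passed the test in a comparison, and their log2 fold changes ran from −0.39 to 0.69.

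ISG20, an exonuclease that degrades single-stranded RNA (chromosome 3, 52314197 to 52325226), had 12.3, 220.0, 224, 248 and 77.6 in group 1, 125, 81.3, 71.1, 74.8 and 166 in group 2a, 204 to 317 with a median of 247 in group 2b, and 372, 265, 259, 216 and 273 in group 3. All 6 samples of group 2b lay above all 5 of group 2a, with means of 255 ± 49.3 and 104 ± 40.9 (log2 fold change 1.29, SE 0.23, adjusted p = 0.00190, edgeR's quasi-likelihood test; exact permutation p = 0.00216, the smallest that 6 against 5 samples allow). Of the 5 samples of group 1, 3 lay above every sample of group 2a, replicate 5 within their range and replicate 1 below it, and the difference of group 2a from group 1 did not pass the test (log2 fold change −0.59, adjusted p = 0.644). Between groups 3 and 1 its ranges overlapped and the test was not passed (log2 fold change 0.82, adjusted p = 0.325). In the 2 single-dog samples of group 2b alone against group 2a the log2 fold change was 1.31 with an adjusted p of 0.106.

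OAS3, a synthetase that makes a signalling nucleotide on contact with double-stranded RNA (chromosome 26, 10729355 to 10747851), had 0.945, 0.936, 0.911, 7.87 and 2.19 in group 1, 7.42, 5.21, 6.67, 7.02 and 7.75 in group 2a, 13.0 to 20.5 with a median of 15.7 in group 2b, and 8.99, 0, 10.7, 6.04 and 0 in group 3. Its raw counts were only 0 to 22 in any sample, and a count of 0 allows up to 3 counts, which is counting error only. Every sample of group 2b was above every sample of the other groups, with means of 16.0 ± 2.93 against 6.81 ± 0.984 in group 2a (log2 fold change 1.21, SE 0.31, adjusted p = 0.0164, edgeR's quasi-likelihood test). No sample of group 2a and all 6 of group 2b had a raw count of at least 10, so OAS3 was tested only through the group where it was high, and the call is given as a description. The 5 samples of group 3 all lay below group 2b (log2 fold change −1.61, SE 0.68, adjusted p = 0.334; exact permutation p = 0.00216), which did not pass edgeR's quasi-likelihood test over all genes. In that comparison too OAS3 reached the count minimum only with group 2b, so its values are given as a description. With the 4 groups in 1 fit the adjusted p of group 2b against group 2a was 0.216, with no count minimum it was 0.0902, and over all fits run it ran from 0.0161 to 0.216, so the call for OAS3 depends on the fit. OAS2, which lies 9005 bases away on the same chromosome, ranged from 79.4 to 359 and had a log2 fold change of −0.08 in the same comparison (adjusted p = 0.863). OAS1, 9032 bases from OAS3 on the other side, ranged from 0.843 to 14.0. A difference in response between these neighbours was not tested.

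IFIT3, a protein of the family that binds foreign RNA ends (chromosome 4, 402330 to 423652), had 3.78, 74.9, 133, 75.6 and 35.0 in group 1, 68.7, 36.5, 44.4, 49.1 and 31.0 in group 2a, 49.2 to 136 with a median of 70.0 in group 2b, and 0, 138, 142, 125 and 53.4 in group 3. The value of 0 in group 3 replicate 1 stood beside 53.4 to 142 in the other 4 samples of that group. In group 2b against group 2a the ranges overlapped and the test was narrowly missed (log2 fold change 0.84, SE 0.29, adjusted p = 0.0622, edgeR's quasi-likelihood test), and without group 2a replicate 1 it was called (log2 fold change 1.03, adjusted p = 0.0337, the lowest of 0.0337 to 0.139 over fits that left out 1 sample). IFIT2, 13076 bases away, ranged from 6.67 to 45.6 and IFIT5 from 68.9 to 164, with log2 fold changes of −0.37 to 0.22 and adjusted p of 0.286 or more. ADAR, which edits adenosine to inosine in double-stranded RNA (chromosome 7, 42733156 to 42771908), had 696, 1083, 1101, 1409 and 1114 in group 1, 875, 635, 826, 1009 and 1003 in group 2a, 775 to 936 with a median of 857 in group 2b, and 1131, 1003, 1175, 1049 and 886 in group 3. The lowest values were those of group 2a replicate 2 and group 1 replicate 1, and group 3 exceeded group 2b by 0.29 on the log2 scale (SE 0.11, adjusted p = 0.306) with overlap.

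CMPK2, a mitochondrial nucleotide kinase (chromosome 17, 4478967 to 4492134), had 16.1, 44.0, 119, 264 and 28.4 in group 1, 37.1, 42.7, 61.1, 32.7 and 29.1 in group 2a, 19.6 to 62.6 with a median of 32.5 in group 2b, and 97.9, 41.5, 153, 19.1 and 48.2 in group 3. The highest values were in group 1 replicates 3 and 4 and in group 3 replicates 1 and 3, and all compared groups overlapped. It did not pass the test in group 2a against group 1 (log2 fold change −1.21, SE 0.63, adjusted p = 0.338), where the log2 fold change was −0.35 without group 1 replicate 4, or in group 3 against group 2b (log2 fold change 1.05, SE 0.44, adjusted p = 0.330, edgeR's quasi-likelihood test). RSAD2 (viperin), which lies 8151 bases from CMPK2 and makes a chain-ending nucleotide, ranged from 4.65 to 118. The dynamin-like GTPases MX1 and MX2, 22608 bases apart, ranged from 26.5 to 317 and from 1.09 to 31.6, and SAMD9L, an inhibitor of translation, from 383 to 1173. Over RSAD2, MX1, MX2 and SAMD9L the log2 fold changes were −0.81 to 0.98 and the smallest adjusted p was 0.386.

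DTX3L, a ubiquitin ligase, and PARP9 form a complex that marks histones and viral proteins, and their genes overlap by 412 bases on chromosome 33. DTX3L (chromosome 33, 26309779 to 26317453) had 70.9, 44.9, 96.5, 128 and 35.0 in group 1, 139, 153, 179, 218 and 191 in group 2a, 118 to 286 with a median of 168 in group 2b, and 103, 182, 157, 103 and 66.0 in group 3. All 5 samples of group 2a lay above all 5 of group 1, at 176 ± 30.9 against 75.1 ± 38.2 (SD, n = 5 each). The adjusted p was nevertheless above the threshold (log2 fold change 1.23, SE 0.31, adjusted p = 0.0827, edgeR's quasi-likelihood test; exact permutation p = 0.00794). Over the other fits it ran from 0.0108 with DESeq2 to 0.620 with DV200 in the model, where the log2 fold change was 0.83, and it was 0.0439 without group 1 replicate 4.

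PARP9 (chromosome 33, 26276577 to 26310190) had 111, 148, 315, 211 and 113 in group 1, 94.6, 76.1, 109, 138 and 162 in group 2a, 75.0 to 132 with a median of 115 in group 2b, and 105, 141, 178, 116 and 113 in group 3. Between groups 1 and 2a its sign was opposite to that of DTX3L, since the log2 fold change of PARP9 was −0.63 (SE 0.31, adjusted p = 0.317) and the groups overlapped. The ratio of DTX3L to PARP9 counts was 0.636, 0.304, 0.306, 0.608 and 0.311 in group 1 and 1.47, 2.01, 1.64, 1.58 and 1.18 in group 2a. In group 2b it was 1.02 to 3.20 with a median of 1.31, and in group 3 it was 0.981, 1.29, 0.880, 0.887 and 0.583, between the ranges of groups 1 and 2a apart from 2 samples. The ratio was chosen after the values were seen and has no test. As strand use in counting is not given in the sources used here, reads in the shared 412 bases could belong to either gene. PARP14, another enzyme of this region, which lies 78833 bases from DTX3L, ranged from 46.9 to 208 and passed no test (smallest adjusted p 0.131).

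DTX3L was also the only member that passed the test for a change with stage that differs between the kinds of area. The log2 change from group 2b to group 3 minus that from group 1 to group 2a was −1.78 (SE 0.43, adjusted p = 0.0217, edgeR's quasi-likelihood test of the interaction over 12505 genes). This is 1 of 35 members tested, or 2.86%, beside 3.97% of all genes. With DV200 in the model the difference was −1.33 with an adjusted p of 0.200. SP110 came next with −1.46 (adjusted p = 0.0675). The 8 keratinocyte markers, of which 7 were tested, had medians of opposite sign in the stage comparisons, with a log2 fold change of −2.08 and 1 called lower in group 2a against group 1 and a median of 1.67 with 0 called in group 3 against group 2b, and their part in the DTX3L values was not tested.

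SP110, a nuclear body protein and the member with an adjusted p of at most 0.05 but a fold change under the threshold, was found at chromosome 25, 42601276 to 42643009. SP110 had 159, 91.7, 334, 489 and 209.8 in group 1, 335, 467, 508, 669 and 411 in group 2a, 597 to 1006 with a median of 663 in group 2b, and 287, 454, 846, 503 and 339 in group 3. Group 2b was higher than group 2a by 0.58 on the log2 scale (SE 0.18, adjusted p = 0.0446 by edgeR's quasi-likelihood test; exact permutation p = 0.0130), with overlap of the ranges. The adjusted p rose above 0.05 in 9 of the 11 fits that left out 1 sample. Its log2 fold change in group 3 against group 1 was 0.92 (adjusted p = 0.155), and without group 1 replicate 4 it was 1.29 (adjusted p = 0.0460, in a range of 0.0460 to 0.330 over fits that left out 1 sample).

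EPSTI1, a gene first described for its induction between epithelium and stroma (chromosome 22, 7839883 to 7933794), had 12.3, 20.6, 38.3, 63.0 and 24.0 in group 1, 56.6, 24.0, 38.9, 47.9 and 50.4 in group 2a, 62.6 to 129.6 with a median of 79.6 in group 2b, and 51.0, 51.9, 113, 114 and 46.1 in group 3. All 6 samples of group 2b exceeded all 5 of group 2a, with means of 89.0 ± 27.9 and 43.5 ± 12.7 (log2 fold change 1.02, SE 0.26, adjusted p = 0.0150, edgeR's quasi-likelihood test; exact permutation p = 0.00216). The fold change sat at the threshold, and it fell under 1 on the log2 scale, to 0.86 to 0.98, when group 2a replicate 2 or 3 or group 2b replicate 2 or 5 was left out. EPSTI1 in group 3 against group 1 had a log2 fold change of 1.24 (adjusted p = 0.0814), and 1.65 with an adjusted p of 0.0255 without group 1 replicate 4 (0.0255 to 0.188 over fits that left out 1 sample).

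**Figure D4:**
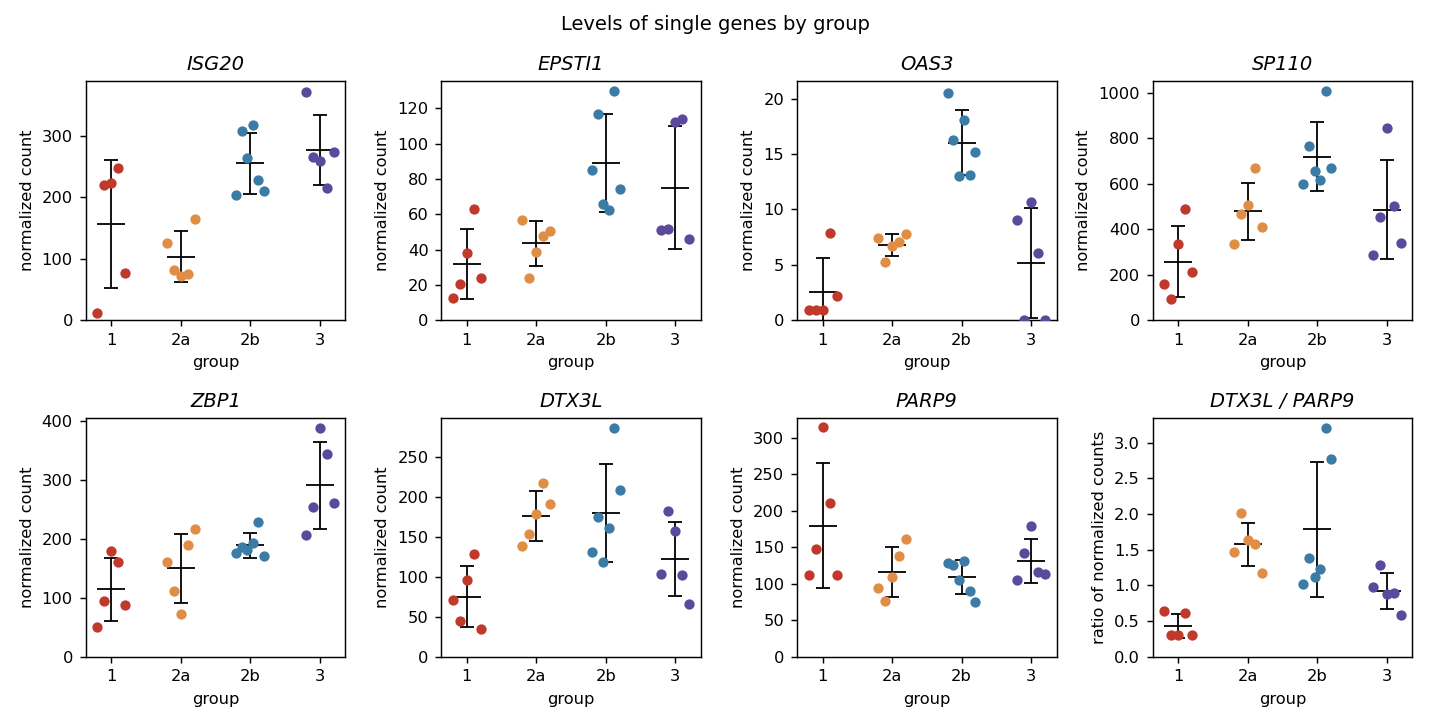
Normalized counts per sample (points) with the mean and SD of each group for ISG20, EPSTI1, OAS3, SP110, ZBP1, DTX3L and PARP9, and the ratio of DTX3L to PARP9 counts. ISG20, EPSTI1 and OAS3 are higher in every sample of group 2b than in any of group 2a, ZBP1 is higher in every sample of group 3 than in any of group 1, and DTX3L and the ratio are higher in every sample of group 2a than in any of group 1.

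XAF1, which promotes cell death (chromosome 5, 30825789 to 30836143), had 3.78, 11.2, 15.5, 26.8 and 4.37 in group 1, 25.0, 13.5, 17.8, 23.4 and 22.3 in group 2a, 15.8 to 38.2 with a median of 20.1 in group 2b, and 29.0, 20.8, 46.6, 27.2 and 34.6 in group 3. Its lowest values were those of group 1 replicates 1 and 5, and the log2 fold change of group 3 against group 1 was 1.33 (SE 0.52, adjusted p = 0.105) with overlap. Without group 1 replicate 4 it was 1.83 with an adjusted p of 0.0323 (0.0323 to 0.189 over fits that left out 1 sample). Group 1 replicates 1 and 5 had raw counts of 4. XAF1 thus reached the count minimum only with group 3, where it was high, and that call is a description. IFI35, a leucine zipper protein that binds NMI (chromosome 9, 19922745 to 19933656), had 78.4, 88.0, 107, 103 and 71.0 in group 1, 111, 93.8, 60.0, 67.8 and 118 in group 2a, 83.1 to 130.2 with a median of 96.4 in group 2b, and 96.9, 105, 123, 145 and 133 in group 3. Group 3 was above group 1 by 0.43 on the log2 scale (SE 0.19, adjusted p = 0.155), again with overlap.

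IFI44, a gene linked to slower cell growth (chromosome 6, 68883819 to 68900068), had 184, 398, 676, 704 and 221 in group 1, 364, 247, 398, 338 and 283 in group 2a, 221 to 365 with a median of 317 in group 2b, and 413, 327, 631, 369 and 349.8 in group 3. It was highest in group 1 replicates 3 and 4 and in group 3 replicate 3, the samples that were high for many members. The log2 fold change of group 3 against group 2b was 0.46 (SE 0.19, adjusted p = 0.328). Its neighbour IFI44L, 2341 bases away, ranged from 44.4 to 458 and passed no test (smallest adjusted p 0.202). The MX, OAS, IFIT, HERC and IFI44 genes include close copies, and how reads that match several copies were counted is not given in the sources used here, so values of single copies are uncertain.

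Upstream of the list, several receptors and signalling genes were higher in the lymphocyte-rich areas. Of 21 such genes, 19 were found and 17 tested. In group 2b against group 2a, 6 of the 17 were called higher (35.3%, against 5.98% of all genes), and by adjusted p alone 8 were higher and 1 lower (8.9% and 7.64% of all genes). IFNAR2 (log2 fold change 2.02, adjusted p = 0.000452) and IFNAR1 (1.08, adjusted p = 0.00273), the chains of the type I receptor, were among them in edgeR's quasi-likelihood test. So were IRF8, a factor of myeloid and B cells (1.98, adjusted p = 0.000147), SOCS1, a brake on JAK kinases (1.74, adjusted p = 0.00199), and IRF1 (1.11, adjusted p = 0.00592). IFNGR1 was lower by adjusted p alone (−0.82, adjusted p = 0.0217).

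Group 3 against group 1 gave 3 of these 17 genes as called higher (17.6%, against 4.92% of all genes), namely IFNAR2 (1.77, adjusted p = 0.00188), IRF8 (1.36, adjusted p = 0.0186) and IRF1 (1.04, adjusted p = 0.0369). IFNAR1 (0.83, adjusted p = 0.0248) was higher by adjusted p alone, all in edgeR's quasi-likelihood test. None of the 17 was called in a stage comparison. The interferon gene IFNG itself was low, with means of 10.8, 14.7, 33.5 and 54.0 normalized counts in groups 1, 2a, 2b and 3. Its differences did not pass the test in group 2b against group 2a (1.16, adjusted p = 0.165) or in group 3 against group 1 (2.31, adjusted p = 0.0769). IFNB1 was not analysed here.

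Of 13 entries tested for nucleic acid sensors and their adaptors, 1 was called higher in group 2b against group 2a (7.69%, against 5.98% of all genes). Each entry of TLR9 counts among the 13, and MAVS was not tested. The entry called was 1 of those for TLR9, at 0.928 to 5.21 normalized counts in group 2a and 8.43 to 28.9 in group 2b, which entered the test through the group where it was high. The other TLR9 entry was at 150 to 351 in group 2a and 198 to 310 in group 2b. It did not pass edgeR's quasi-likelihood test (0.14, adjusted p = 0.723). By adjusted p alone IKBKE was higher (0.76, adjusted p = 0.0173) and STING1 lower (−0.92, adjusted p = 0.00127) there. In group 3 against group 1, TLR8 (2.06, adjusted p = 0.0117) and IKBKE (1.16, adjusted p = 0.0165) were called higher (15.4%, against 4.92% of all genes). STING1 (−0.72, adjusted p = 0.0319), MYD88 (−0.61, adjusted p = 0.0333) and CGAS (−0.89, adjusted p = 0.0420) were lower by adjusted p alone in edgeR's quasi-likelihood test.

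Of 30 further interferon-inducible genes, many of them typical of interferon-γ, 20 were found and 19 tested. In group 2b against group 2a, 3 were called higher (15.8%, against 5.98% of all genes), namely IDO1, which degrades tryptophan (2.64, adjusted p = 0.00275), the T cell attractant CXCL10 (1.63, adjusted p = 0.0343) and the peptidase LAP3 (1.27, adjusted p = 0.0108). CXCL10 was at 9.998 to 36.8 normalized counts in group 2a, with a raw count under 10 in a sample there. It reached the count minimum only with group 2b, where it was high, so its call and the share that holds it are a description. CIITA, the switch for MHC class II genes (0.86, adjusted p = 0.00183), and the peptide transporter TAP1 (0.74, adjusted p = 0.0151) were higher by adjusted p alone in edgeR's quasi-likelihood test. In group 3 against group 1, 4 were called higher (21.1%, against 4.92% of all genes), among them IDO1 (3.80, adjusted p = 0.00998), CXCL10 (3.27, adjusted p = 0.00798) and GBP1 (1.26, adjusted p = 0.0329). In group 1, IDO1 was at 0 to 37.3 normalized counts and CXCL10 at 0 to 14.2. Both could reach the count minimum only with group 3, where they were high, so these calls and the share that holds them are a description. The T cell markers, for comparison, were called higher for 8 of 9 tested (88.9%) and for 4 of 9 (44.4%) in these comparisons, and their part in the other lists was not tested. A difference between the lists was not tested either.

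**Figure D5:**
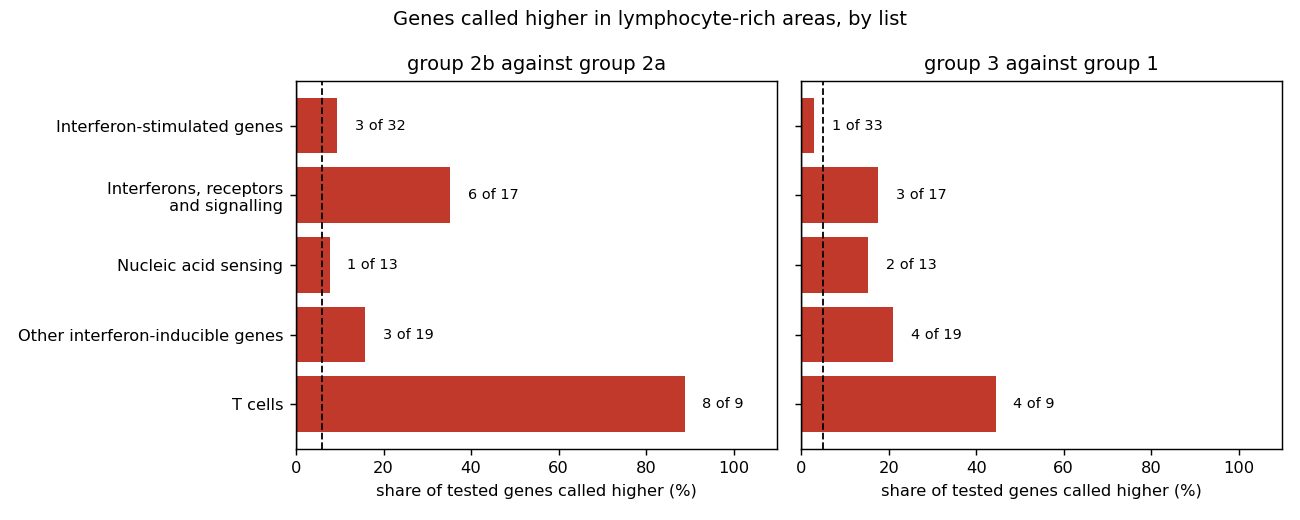
Share of tested genes called higher (percent, axis from 0) in group 2b against group 2a and in group 3 against group 1, for the interferon-stimulated genes, the pathway lists and the T cell markers, with the number called of the number tested at each bar and a dashed line for all genes tested (5.98% and 4.92%). The bars of the interferon-stimulated genes, at 3 of 32 and 1 of 33, end just above and just under the dashed lines, and those of the T cell markers, at 8 of 9 and 4 of 9, are the highest. The 3 of 32 include OAS3, which reached the count minimum through group 2b alone.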

How the data were processed

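RNA of 21 formalin-fixed tumor samples was extracted with an FFPE kit and made into libraries with the QuantSeq 3′ mRNA-Seq FWD kit by its protocol for low-quality RNA. After trimming with Cutadapt, the authors mapped the reads to UU_Cfam_GSD_1.0 by STAR, and they deposited the raw count of each gene in each sample. featureCounts and DESeq2 are also among the tools of the submitters' processing notes, and versions, strand setting and the handling of reads with several matches are not given in the sources used here. The deposited normalized signal is the raw count divided by a DESeq2 size factor, and these normalized counts were used for levels. The deposited tables of the authors' own comparisons (mean level, log2 fold change, its error, p-value and adjusted p-value) were not used. The number of columns that belong to no known sample was 0.

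Members and gene lists were chosen with earlier results of these data known. Symbols were matched to a RefSeq gene table of UU_Cfam_GSD_1.0 for positions. Raw counts were tested with edgeR 4.0.16 (R 4.3.3), with TMM factors, a minimum count of 10 in 5 or more of the compared samples, the quasi-likelihood test and Benjamini-Hochberg adjustment over all genes tested, in a fit of the 2 compared groups with no covariates. The calls follow the thresholds of the study, which used DESeq2. The interaction used 1 fit of all 4 groups. Single values were compared by a 2-sided exact permutation test of the mean of log2(normalized count + 1). Every member was accounted for, and values of each sample, or for group 2b the lowest, median and highest, were given for 16 members, those with an adjusted p of at most 0.05, those whose groups did not overlap, and the 5 with the smallest p in each comparison. Pathway genes were named where their adjusted p was at most 0.05, at most 5 in each direction. Alternatives were DESeq2 1.42.0, RLE and upper-quartile factors, other count minimums, all groups in 1 fit, a term for DV200, a replicate block, pooled or single-dog samples of group 2b only, and leaving out each sample. The alternatives for the interaction and for the spread were added after seeing the data. The scripts were tested on simulated data, and a count of 0 was taken to allow up to 3 counts, for counting error only. Tables and figures were made with Python 3.11.15, pandas 2.3.3, numpy 2.4.6, scipy 1.17.1 and matplotlib 3.10.9.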

Additional observations from a re-analysis of the deposited data

Results flagged for a closer look

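In 68 groups of samples the highest or lowest value was checked for standing apart by Dixon's ratio, the gap to the nearest sample divided by the range. About 1 in 20 groups would do so by chance, and 2 did. For IFIT3 in group 3, replicate 1 was at 0 while the other samples were at 53.4 to 142, with a ratio of 0.806 on the log2 scale. For the mean level of the 38 members in group 3, replicate 3 stood above the others at 6.55, with a ratio of 0.723. The change of DTX3L with stage differed between the lymphocyte-rich and the tumor cell-rich areas by −1.78 on the log2 scale, with an adjusted p of 0.0217 in edgeR's quasi-likelihood test of the interaction, and the difference had the same sign in all 21 fits that left out 1 sample, from −2.06 to −1.60.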

How the results depend on the processing

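None of the results changed sign as a call under the alternatives run, and of the values recomputed for named members 421 kept direction and side of the threshold, 16 came to pass it, 23 no longer passed it and 2 moved. The number of members called in group 2a against group 1 was 0, and 1 with DESeq2 and with all 4 groups in 1 fit. In group 3 against group 2b it was 0, and 1 with DESeq2. In group 2b against group 2a it was 3, and 1 with all 4 groups in 1 fit, 1 with the pooled samples of group 2b only and 0 with its single-dog samples only. In group 3 against group 1 it was 1, and 2 with DESeq2, 3 with all 4 groups in 1 fit and 0 with DV200 as a covariate. The interaction count of 1 was 0 with DV200 as a covariate. The single-dog and pooled fits held fewer samples, and for the other changes the cause was not tested.

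Counts over all genes moved too. In group 2a against group 1 the 44 calls became 262 with DESeq2, 77 with a count of at least 10 in every sample, 184 with all groups in 1 fit and 0 with DV200. In group 3 against group 2b the 5 calls became 13 with no threshold on the fold change, 52 with DESeq2, 3 with no filter, 2 with all groups in 1 fit, 2 with DV200, and 0 with the pooled or the single-dog samples of group 2b only. In group 2b against group 2a the 1102 calls became 1909 with no threshold on the fold change, 670 with the stricter count minimum and 111 with the single-dog samples only. In group 3 against group 1 the 955 calls became 1593 with no threshold and 62 with DV200. The cause was not tested.

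Leaving out 1 sample at a time gave 0 to 1, 0 to 0, 2 to 4 and 1 to 4 members called for groups 2a and 1, groups 3 and 2b, groups 2b and 2a, and groups 3 and 1, in this order, and 1 to 3 for the interaction. Over all genes it gave 0 to 78, 0 to 50, 918 to 1190 and 580 to 1027 calls. The members' median log2 fold change ran from −0.33 to 0.02, 0.05 to 0.19, 0.16 to 0.30 and −0.03 to 0.48. The 4 members called in group 3 against group 1 without group 1 replicate 4 were ZBP1, EPSTI1, XAF1 and SP110. Of these, XAF1 was low in group 1 and reached the count minimum only with group 3, where it was high.

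Replicate numbers do not pair the samples, since correlations of same-numbered samples ran from −0.27 to 0.139. With the replicate block, members called were 2 in group 3 against group 1 and 2 for the interaction, and all genes called were 0 between groups 2a and 1 and 1 between groups 3 and 2b, while OAS3 in group 2b against group 2a had an adjusted p of 0.102. Depth limits the low members, since OASL, BST2, EIF2AK2 and IFI6 could not be tested between 2 groups and the OAS3 call rests on raw counts of at most 22.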
